A study of Arabidopsis thaliana with 90 samples.

Results

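The binding of WDR5A-HA was compared with the histone mark H3K4me3 in wild-type Arabidopsis thaliana seedlings, using the 3 libraries of WDR5A-HA chromatin immunoprecipitation and the 3 of H3K4me3. These are 6 of the 90 libraries of the study, chosen by feature and genotype, and 6 of the 30 that were analysed as peak lists. The study, per its title, concerns the DREAM complex, WDR5A and transcript elongation. WDR5A-HA came from seedlings labelled as the Col-0 ecotype, precipitated with magnetic beads against the HA tag, and H3K4me3 came from Col-0 seedlings precipitated with an antibody to the mark. All plants were 9 days old, were grown on MS medium in continuous white light and were taken whole, so each library averages over the cell types of a seedling. Chromatin was cross-linked with formaldehyde and sheared to fragments of 200 to 500 bp. The labels give neither the promoter that drives the tagged WDR5A nor the number of lines, and no tagged protein beyond its signal was checked here. Replicates were biological per the study's design.

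WDR5A is the Arabidopsis homologue of WDR5, a WD40-repeat protein that forms the core of COMPASS-like complexes together with RBL, ASH2R and a SET-domain methyltransferase such as ATX1 or ATXR3. These complexes methylate histone H3 at lysine 4, and in plants the trimethylated form, H3K4me3, marks the beginning of transcribed genes. In yeast and animals the same complexes are known to travel with RNA polymerase II (Pol II), which carries Ser5 phosphorylation early in transcription and Ser2 phosphorylation later.

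A gene was called for a feature when at least 1 bp of a peak lay within 500 bp of either gene end in all 3 libraries of that feature. By this rule WDR5A-HA was found at 13990 of 27444 nuclear protein-coding genes (51.0%) and H3K4me3 at 17352 (63.2%). Most WDR5A-HA genes carried the mark, and the reverse was less complete. Both features were called at 12627 genes, 46.0% of all genes. These made up 90.3% of the WDR5A-HA genes and 72.8% of the H3K4me3 genes. WDR5A-HA alone, with no H3K4me3 peak in these windows in any library, was found at 1079 genes (3.93% of all genes), and H3K4me3 alone at 2118 genes (7.72%). The first of these counts depends strongly on the window and the peaks used: it was 504 at gene starts alone, 651 with the gene body as window, 1839 with the summit required in the window and 2251 with peaks scoring above the library median. The second came to 3487 when 2 of 3 libraries sufficed. A further 7536 genes (27.5%) had no peak of either feature in these windows in any library, and 4084 (14.9%) were called in only some libraries of a feature and were left out of these classes.

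The gap between the 2 shares came largely from genes where WDR5A-HA was found in some libraries. Of the H3K4me3 genes, 15% had WDR5A-HA in 1 or 2 libraries and 12.2% had it in none. Of the WDR5A-HA genes, 2.03% had H3K4me3 in 1 or 2 libraries and 7.71% in none. Single libraries set against each other gave the same order: over the 9 pairs of 1 WDR5A-HA and 1 H3K4me3 library, 89.8% ± 0.436 of WDR5A-HA genes had H3K4me3 and 79.8% ± 2.33 of H3K4me3 genes had WDR5A-HA (SD over pairs that share libraries). The absence of a peak means only that none passed the caller's threshold. WDR5A-HA peaks were the weaker ones in fold: the median fold over the caller's background was 2.36, 2.42 and 2.4 in replicates 1 to 3, against 6.91, 6.48 and 7.04 for H3K4me3, while the weakest peaks of the WDR5A-HA libraries had folds of 1.34 to 1.4. The share of H3K4me3-only genes therefore depends on how sensitive the WDR5A-HA lists are. Read totals are not part of these lists, so the depth behind them is unknown.

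**Figure D1:**
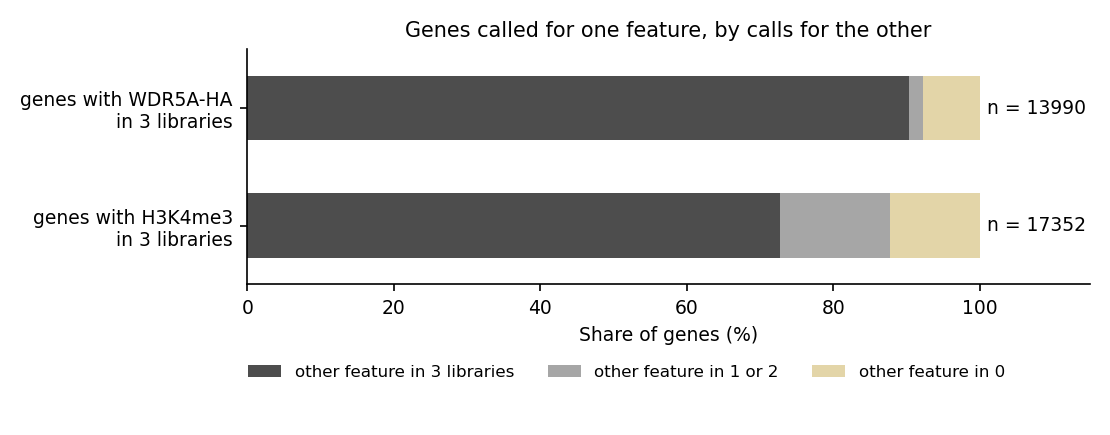
Horizontal stacked bars give, for genes called for WDR5A-HA in all 3 libraries (top, 13990 genes) and for H3K4me3 in all 3 (bottom, 17352 genes), the share in % with the other feature in 3, in 1 or 2, or in 0 libraries. The WDR5A-HA bar is filled to 90.3% by genes with H3K4me3, and the H3K4me3 bar to 72.8% by genes with WDR5A-HA.

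Neighbouring genes in this compact genome can share a peak, so the classes were also counted for the 7385 genes with no other annotated gene within 500 bp. There 83.9% of WDR5A-HA genes carried H3K4me3, 71.0% of H3K4me3 genes carried WDR5A-HA, and the genes with 1 feature alone made up 13.0% of the WDR5A-HA genes and 14.7% of the H3K4me3 genes. The class with WDR5A-HA alone is the less certain one. Its WDR5A-HA peak touched the gene itself in all 3 libraries at 521 of the 1079 genes (48.3%), while the H3K4me3 peak of the other class touched the gene at 1727 of 2118 (81.5%). An H3K4me3 peak further inside the gene, beyond the windows at its ends, was present at 105 of the genes called WDR5A-HA only, and a WDR5A-HA peak inside 75 of those called H3K4me3 only.

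H3K4me3 was weaker where it stood alone, and the peaks of either feature were narrower there. The median H3K4me3 fold was 6.01, 5.82 and 6.03 in replicates 1 to 3 at H3K4me3-only genes, against 7.68, 7.2 and 7.87 at genes with both. The 2 sets of values did not overlap. H3K4me3 peaks were 684 ± 7.97 bp wide at H3K4me3-only genes and 882 ± 9.02 bp at genes with both (SD, n = 3). For WDR5A-HA the fold hardly differed, at 2.63 ± 0.0208 in WDR5A-HA-only genes and 2.71 ± 0.0493 in genes with both, with widths of 550 ± 38.4 and 673 ± 51.0 bp (SD, n = 3). Genes with WDR5A-HA alone were short, with a median length of 1739 bp, against 2372 bp for H3K4me3 alone, 2401 bp for both and 2078 bp over all genes.

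The other features of the study, which the classes did not use, separated the 2 kinds of gene. TBP, the TATA-binding protein that nucleates the initiation complex, had a region at 89.9% of WDR5A-HA-only genes and 28.2% of H3K4me3-only genes, against 56.9% of all genes. It stood at 87.5% of genes with both. Total Pol II lay over 34.8% of WDR5A-HA-only genes and 19.8% of H3K4me3-only genes, against 69.0% of genes with both and 40.8% of all genes. For Ser5-phosphorylated Pol II these shares were 35.7%, 15.2%, 69.3% and 39.6%, and for the Ser2-phosphorylated form 35.2%, 26.8%, 68.1% and 42.2%, in the same order of classes. Genes with either feature alone thus carried Pol II over the gene body less often than genes with both, and TBP followed WDR5A-HA. TBP was called in the windows at gene ends that also define the classes, and Pol II over the gene body. The TBP shares therefore cannot be set against the Pol II shares.

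The histone features followed H3K4me3. H3K4me2, the dimethylated form, was called at 28.5% of WDR5A-HA-only genes and 82.8% of H3K4me3-only genes, against 81.0% of genes with both and 58.0% of all genes. H3K4me1, the form found over gene bodies, was called at 7.23% of WDR5A-HA-only genes and 51.9% of H3K4me3-only genes, against 56.2% of genes with both and 36.5% of all genes. The histone variant H2A.Z was called at 65.2% and 96.4% in the WDR5A-HA-only and H3K4me3-only classes, against 94.9% with both and 78.7% of all genes. The DREAM component BTE1 and the transcription factor E2FA were rarer everywhere. BTE1 was called at 4.63% of WDR5A-HA-only and 8.59% of H3K4me3-only genes, against 5.23% of all genes. E2FA was called at 6.67% and 10.7% in those classes, against 8.41% of all genes. The TBP regions come from 1 list without replicates.

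At genes with both features, the peaks did not share a centre. The summit of a peak is its highest point, and here the summit of the highest-fold peak of each gene was used. The median distance between the WDR5A-HA and the H3K4me3 summit was 459 ± 5.75 bp over the 9 library pairs (12627 genes). The distance between replicates, which is the error of a summit, was 53.0 bp for WDR5A-HA and 33.7 ± 1.15 bp for H3K4me3 (3 library pairs each). Summits lay within 200 bp of each other at 28.9% of genes between the features, at 80.6% between WDR5A-HA replicates and at 89.2% between H3K4me3 replicates. They lay more than 1000 bp apart at 33.5% of genes between the features, against 10.4% and 6.31% within them. Taking the nearest pair of summits in a gene instead gave a median of 241 bp, still several times the spread of replicates.

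Around the gene start, WDR5A-HA summits lay upstream of H3K4me3 summits. The gene table gives no strand, so the start was taken as the end nearer the H2A.Z summit, a mark of the first nucleosomes, and 8277 genes oriented in this way had both features in the window around the start. Their median WDR5A-HA summit lay 109, 104 and 109 bp from the start in replicates 1 to 3, and their median H3K4me3 summit 329, 327 and 332 bp. All 3 WDR5A-HA libraries stood upstream of all 3 H3K4me3 libraries. This start-window comparison was added after seeing the data. The planned comparison used the peaks of both gene ends and is given after it. The difference of means was -222.0 bp, with standard deviations of 2.89 and 2.52 bp (exact permutation test over 3 against 3 libraries, two-sided, p = 0.1, the smallest this design allows, and 0.1 after adjustment over 5 such tests). Using the peaks of both gene ends the medians were 247, 248 and 247 bp for WDR5A-HA and 351, 349 and 356 bp for H3K4me3 over 10366 genes, a difference of -104.7 bp with the same p of 0.1 (exact permutation test). In the 1775 of these genes with no other gene within 500 bp, this last difference was -60.3 bp. The start-window difference was not computed for such genes alone.

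Gene by gene, the order was the same at most starts. At 5564 of the 8277 genes (67.2%) the 3 WDR5A-HA summits were all upstream of the 3 H3K4me3 summits, at 1018 (12.3%) they were all downstream, and at 1695 (20.5%) they overlapped. The median offset per gene was -178 bp, with quartiles of -403 and -52 bp. This exceeds the median range over replicates of the same gene, 88 bp for WDR5A-HA and 53 bp for H3K4me3. The WDR5A-HA summit lay ahead of the gene start at 36.1%, 35.9% and 35.7% of genes in replicates 1 to 3, and the H3K4me3 summit at 11.1%, 11.4% and 11.1%. WDR5A-HA was also the broader of the distributions, with quartiles of -120 and 253 bp in replicate 1, against 248 and 438 bp for H3K4me3. The 8277 genes include those with close neighbours, whose peaks can enter these positions. Upstream shares were also taken in 1536 isolated genes longer than 1500 bp, with the peaks of both gene ends. There they were 17.9% for WDR5A-HA and 0.413% for H3K4me3 (means of 3 libraries).

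**Figure D2:**
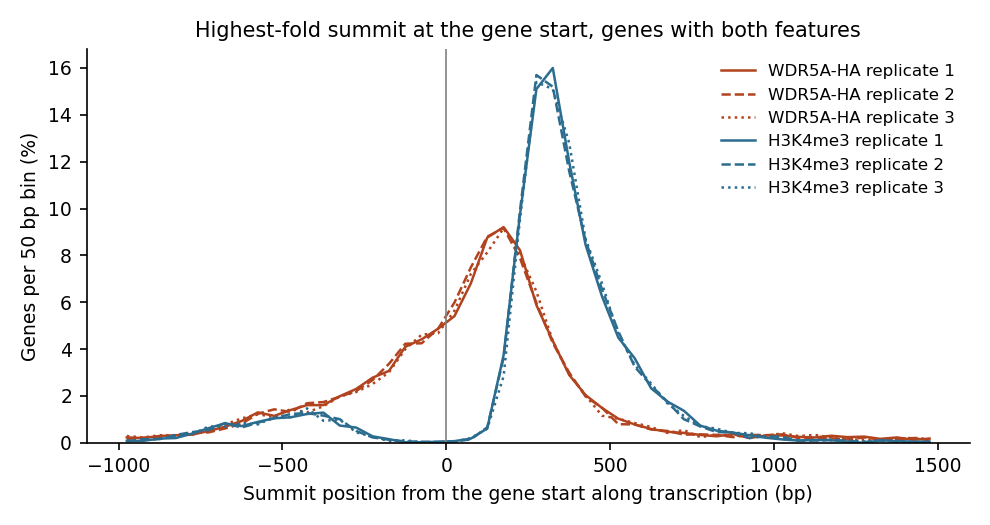
The x axis gives the position of the highest-fold summit from the gene start in bp along transcription, and the y axis the share of 8277 genes per 50 bp bin in %, with 1 line per library (WDR5A-HA in red, H3K4me3 in blue). WDR5A-HA lines are broad and centred at about 109 bp, and H3K4me3 lines are narrow and centred at about 329 bp.

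Individual genes with WDR5A-HA upstream show this order, and genes of the reverse order were not picked here. At HY5, which encodes a bZIP factor that promotes light responses, the WDR5A-HA summits lay at -170, -76 and -121 bp and the H3K4me3 summits at 345, 342 and 358 bp. At PHYB, the main red-light receptor of light-grown plants, they lay at -146, -139 and -150 bp for WDR5A-HA and at 520, 423 and 367 bp for H3K4me3. The actin gene ACT7 had WDR5A-HA summits at -140, -145 and -137 bp, with H3K4me3 summits at 254, 317 and 373 bp. At IAA9, an auxin-response repressor, the positions were -115, -110 and -86 bp for WDR5A-HA and 583, 596 and 686 bp for H3K4me3. In these genes the WDR5A-HA summit sat before the start and the H3K4me3 summit inside the gene in all 6 libraries. They are not typical in this, since WDR5A-HA summits lay before the start at only 35.7% to 36.1% of the 8277 genes. At TOC1, an evening gene of the clock, both sat inside, at 226, 196 and 208 bp for WDR5A-HA and 382, 363 and 341 bp for H3K4me3.

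WDR5A-HA was also found at the other end of genes, where H3K4me3 was rare. To keep neighbours out, this was measured in 1536 oriented genes longer than 1500 bp with both features and no other gene within 500 bp. The highest-fold WDR5A-HA summit lay in the last 500 bp or beyond the end in 33.2%, 32.2% and 32.8% of them in replicates 1 to 3, and the H3K4me3 summit in 2.41%, 2.21% and 1.95%. The libraries of the features did not overlap (exact permutation p = 0.1, the smallest possible). By zone, 17.9% of WDR5A-HA summits lay upstream of the start, 39.1% in the first 500 bp, 10.2% in the middle, 10.7% in the last 500 bp and 22.0% past the end (means of 3 libraries, SD of at most 1.17 percentage points). For H3K4me3 the zones held 0.413%, 68.3%, 29.1%, 1.5% and 0.694%. Peaks of either feature that reached no window at a gene end were not counted, which lowers the share of the middle.

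The Pol II forms were weighted to the same far end. Total Pol II had its highest summit in the last 500 bp of 32.4% ± 0.231 of the genes with a Pol II peak and past the end of 38.5% ± 0.493, and Ser2-phosphorylated Pol II, counted likewise, in 30.0% ± 1.6 and 48.0% ± 0.896 (SD, n = 3). Ser5-phosphorylated Pol II reached 29.0% ± 1.35 and 34.5% ± 1.38 there. It had 12.3% ± 0.379 of its summits upstream of the start, against 4.57% ± 0.34 for total Pol II and 4.17% ± 0.26 for the Ser2-phosphorylated form (SD, n = 3). The WDR5A-HA and H3K4me3 peaks counted here had to reach a 500 bp window at a gene end. Pol II peaks could lie anywhere in the gene or within 500 bp of it. The shares of the middle zone therefore cannot be compared between them. Among the peaks counted, H3K4me3 summits stood at the front of these genes, Pol II summits mostly at the back, and WDR5A-HA summits at both ends. The front here is the gene end nearer the H2A.Z summit, since no strand was given. This direction was checked only against H3K4me3 itself, so the front placement of H3K4me3 has no independent check.

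**Figure D3:**
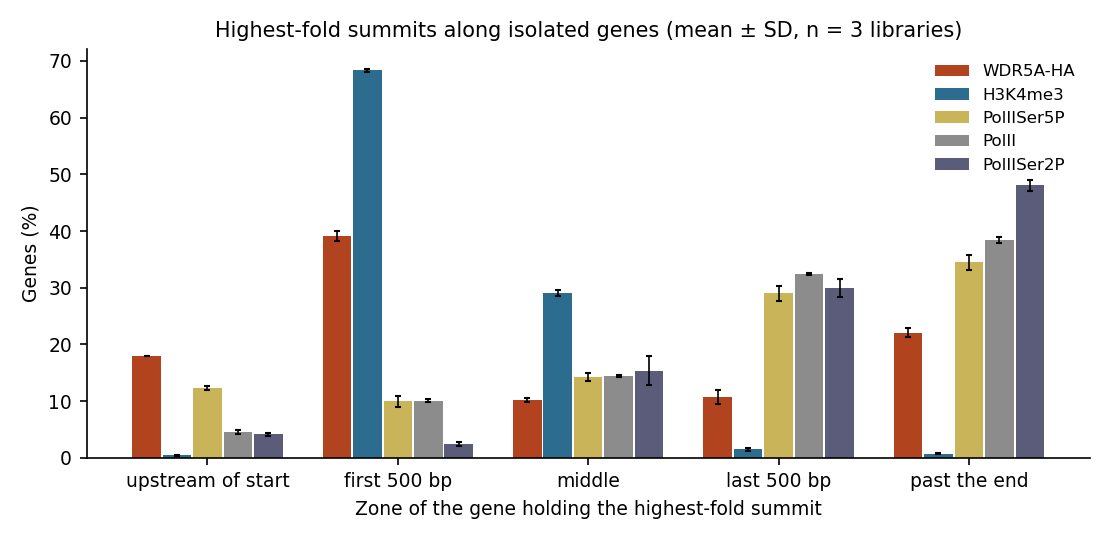
Bars give the mean share of 1536 isolated genes in % (y axis) whose highest-fold summit lay in each of 5 zones along the gene (x axis), for WDR5A-HA, H3K4me3 and 3 forms of Pol II, with error bars of 1 SD over 3 libraries. WDR5A-HA has 39.1% in the first 500 bp and 22.0% past the end, while H3K4me3 has 68.3% and 0.694%. Pol II shares are of the genes with a peak of that form. Pol II peaks were taken from the whole gene and 500 bp to either side, the others only from the windows at gene ends.

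Each end was then scored on its own in 2439 isolated, oriented genes longer than 2000 bp of any class. WDR5A-HA was called at the start window of 1086 genes (44.5%) and at the end window of 719 (29.5%), and both windows were occupied at 480. H3K4me3 was called at the start of 1735 (71.1%) and at the end of 117 (4.8%). Of the genes with either end called, both were called at 36.2% for WDR5A-HA, 4.69% for H3K4me3, 39.8% for total Pol II, 30.3% for its Ser5-phosphorylated form and 35.3% for TBP, so occupancy of both ends was not particular to WDR5A-HA. WDR5A-HA at the end with none at the start was found at 114 genes, and at the start with none at the end at 435. Of the 719 gene ends with WDR5A-HA, 11.8% also had H3K4me3, but 80.8% had total Pol II, 86.8% the Ser5-phosphorylated and 78.2% the Ser2-phosphorylated form, and 93.5% had a TBP region. At the 1393 gene ends without WDR5A-HA these shares were 1.36%, 14.9%, 13.6%, 22.3% and 15.1%. At gene starts, H3K4me3 was called at 90.2% of those with WDR5A-HA and 43.4% of those without, and TBP at 71.9% and 6.6%. Total Pol II was called at 39.6% and 3.2% of these starts, the Ser5-phosphorylated form at 43.4% and 0.206%, and the Ser2-phosphorylated form at 21.5% and 1.03%.

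Peaks taken without genes showed the same partial overlap. Of the WDR5A-HA peaks, 61.0% ± 0.744 overlapped an H3K4me3 peak by at least 1 bp, and 65.7% ± 3.11 of the H3K4me3 peaks overlapped a WDR5A-HA peak (SD over 9 library pairs). Replicates overlapped far more: 83.7% to 92.7% of WDR5A-HA peaks and 97.2% to 98.9% of H3K4me3 peaks were found in another library of the same feature. Among WDR5A-HA peaks above the median score of their library 64.2% ± 1.18 overlapped H3K4me3, and among the rest 57.7% ± 0.923. The location relative to genes differed more. WDR5A-HA had 63.0%, 62.4% and 63.8% of its summits inside protein-coding genes, against 96.9%, 96.8% and 96.8% for H3K4me3, a difference of -33.8 percentage points (exact permutation p = 0.1, the smallest possible). When the gene table was shifted by 1000 or 2000 bp either way, 66.2% to 67.6% of the summits of WDR5A-HA replicate 1 fell inside genes, and 67.8% to 69.9% of those of H3K4me3 replicate 1. WDR5A-HA summits were thus in genes slightly less often than after such a shift, and H3K4me3 summits far more often. At genes with both features WDR5A-HA peaks were narrower as well, with median widths of 681, 618 and 719 bp, against 873, 891 and 883 bp for H3K4me3 (difference -209.7 bp, exact permutation p = 0.1).

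The strength of WDR5A-HA was only weakly related to the strength of H3K4me3. Across the 12627 genes with both features, the rank correlation (Spearman's rho) of the highest fold per gene was 0.101 ± 0.018 between the features, from 0.082 to 0.13 over the 9 library pairs. It was 0.869 ± 0.00265 between WDR5A-HA replicates and 0.626 ± 0.0288 between H3K4me3 replicates (3 pairs each), so replicate error sets a ceiling well above the relation between the features. Genes share libraries and neighbours and are not independent, so these are descriptions without a p. Summing the folds of all peaks of a gene gave 0.194 over the same genes. The relation stayed low in subsets by highest fold. It was 0.07 ± 0.016 for the peaks at 8277 gene starts, 0.089 ± 0.021 for 4378 genes with 1 peak of each feature in every library, and 0.121 ± 0.02 for 2109 isolated genes. It was 0.177 ± 0.009 in the 1791 genes whose summits lay within 200 bp in all library pairs. In the 9459 genes with total or Ser5-phosphorylated Pol II it was 0.08 ± 0.019, and in the other 3168 genes 0.045 ± 0.017.

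Presence and strength gave different pictures. Genes with H3K4me3 were split into quartile groups by their mean fold rank, and WDR5A-HA was called in all 3 libraries at 56.0% of the lowest quartile group, 68.9% of the second, 77.7% of the third and 88.5% of the highest. It was absent from all 3 libraries at 24.1%, 13.3%, 8.0% and 3.39%. The single libraries gave 61.9% to 69.2% in the lowest quartile group and 91.2% to 94.1% in the highest, so the quartile groups do not overlap. In the other direction there was almost no gradient: H3K4me3 was called at 89.0%, 89.7%, 91.4% and 90.9% of genes from the lowest to the highest quartile group of WDR5A-HA fold. Pol II was more frequent higher on both scales, with total or Ser5-phosphorylated Pol II at 46.6% of genes in the lowest and 78.7% in the highest quartile group of H3K4me3 fold, and at 59.9% and 85.3% in the same quartile groups of WDR5A-HA fold.

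**Figure D4:**
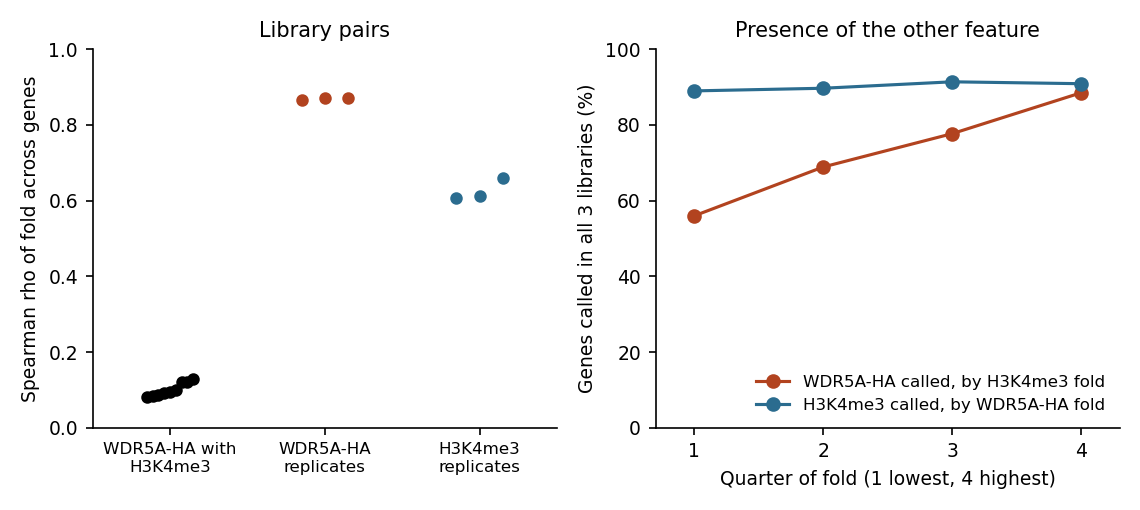
The left panel plots Spearman's rho of fold across 12627 genes (y axis) for 9 pairs of a WDR5A-HA and an H3K4me3 library, 3 pairs of WDR5A-HA replicates and 3 of H3K4me3 replicates, each point a library pair. The right panel plots the share of genes with the other feature in all 3 libraries in % (y axis) by quartile group of fold (x axis): the share with WDR5A-HA climbs to 88.5% with H3K4me3 fold, while the share with H3K4me3 stays between 89.0% and 91.4% over quartile groups of WDR5A-HA fold.

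At a given strength of H3K4me3, genes with WDR5A-HA carried Pol II and TBP more often than genes without it. In the lowest H3K4me3 quartile group, total Pol II was called at 56.2% of genes with WDR5A-HA in 3 libraries and 15.6% of genes with it in none, and the Ser5-phosphorylated form at 56.5% and 8.22%. TBP stood at 88.3% and 24.1%. H3K4me2 was called at 84.1% and 84.0% of the same genes, and H2A.Z at 93.0% and 95.7%. In the highest quartile group H3K4me2 was lower with WDR5A-HA, at 76.4% and 83.7%, and in the third it was higher, at 80.0% and 74.6%. In the highest quartile group, which held 3838 genes with WDR5A-HA and 147 without, total Pol II was at 77.9% and 30.6% and TBP at 88.1% and 36.1%. These shares are descriptions over genes.

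The strongest genes of both features had folds in the top of each list. TIR1 (AT3G62980), the auxin receptor F-box protein, had WDR5A-HA folds of 7.86, 6.86 and 8.17 and H3K4me3 folds of 11, 10.5 and 11.9. Its peaks in replicate 1 lay on chromosome 3 of TAIR10 from 23275755 to 23277741 for WDR5A-HA and from 23275042 to 23276481 for H3K4me3. TIC (AT3G22380), a regulator of the circadian clock, had 6.75, 6.38 and 6.52 for WDR5A-HA and a mean of 11.3 ± 1.72 for H3K4me3 (SD, n = 3). There the peaks lay at separate places on chromosome 3, from 7917260 to 7920280 for WDR5A-HA and from 7913011 to 7916242 for H3K4me3. A shared peak at AT3G52800 and PAP21 (AT3G52810) gave WDR5A-HA folds of 7.38, 6.28 and 7.97 and H3K4me3 folds of 10.7, 11.1 and 11.6. COR413-PM2 (AT3G50830), a cold-regulated membrane protein, had 5.64, 5.21 and 6.13 for WDR5A-HA and 11.3, 11 and 10.7 for H3K4me3. However, its WDR5A-HA summits lay just past the gene's end, at 1972, 1993 and 1934 bp, and its H3K4me3 summits at 375, 354 and 341 bp. The photosynthesis gene PSBO2 (AT3G50820) shared this WDR5A-HA peak. The remaining entries were AT3G51950, AT5G59540 with RDUF2, AT4G32030, and AT3G46540 with SOS5 and TIM9. Their WDR5A-HA folds averaged 5.53 to 6.51 and their H3K4me3 folds 9.83 to 10.8.

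At 3521 of the 12627 genes with both features (27.9%) the 3 WDR5A-HA rank percentiles all stood above the 3 of H3K4me3, and at 3375 (26.7%) all stood below. At 5731 genes (45.4%) they overlapped. These sets were chosen by the ranks, so their ranks are not a result. They differed in features the ranks did not use. H3K4me1 was called at 38.4% of the genes with higher WDR5A-HA rank and 69.5% of those with higher H3K4me3 rank, beside 56.2% of all genes with both. TBP was called at 94.3% and 80.7%, beside 87.5%, and Ser5-phosphorylated Pol II at 73.4% and 64.9%, beside 69.3%. Ser2-phosphorylated Pol II was at 66.2% and 68.5%, and H3K4me2 at 82.5% and 82.0%.

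The 6 entries at the WDR5A-HA side of this contrast had no list in common. PRR9 (AT2G46790), a morning-phased clock repressor, had WDR5A-HA folds of 7.43, 8.73 and 7.42 and H3K4me3 folds of 2.96, 2.86 and 3.12. Its WDR5A-HA summits lay at -150, -164 and -138 bp from the start and its H3K4me3 summits at 306, 223 and 313 bp, and it shared the WDR5A-HA peak with AT2G46780. Among genes with both features it thus stood at percentiles of 99.5 to 100 for WDR5A-HA and 2.0 to 2.86 for H3K4me3. SAUR63 (AT1G29440), an auxin-induced growth gene, had 6.09, 5.57 and 5.49 for WDR5A-HA and 2.17, 2.68 and 2.72 for H3K4me3, from a WDR5A-HA peak that did not touch SAUR63 in any library and lay over AT1G29450 and AT1G29435. SUO (AT3G48050) had 5.77 ± 0.494 and 2.61 ± 0.356. AT4G29700, AT4G16970 and AT4G27510 had 5.59 to 7.09 on average for WDR5A-HA and 2.19 to 3.09 for H3K4me3. At AT4G16970 the WDR5A-HA summits lay at -2336, -2295 and -2363 bp from the start, and only the edge of the peak reached the gene.

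The 6 entries at the H3K4me3 side included a subunit of the methylating complex. ASH2R (AT1G51450, named TRO in the gene table), a core subunit of COMPASS-like complexes, had WDR5A-HA folds of 1.94, 2.02 and 1.98 and H3K4me3 folds of 10.2, 10.7 and 10.1. NRS/ER (AT1G63000), an enzyme of UDP-rhamnose synthesis, had 1.96, 2.04 and 1.91 against 9.62, 11.1 and 12.3. AT3G59870 had 1.95, 1.97 and 1.68 for WDR5A-HA and 9.79, 9.9 and 13.3 for H3K4me3. AT1G69980, AT5G49500 with PFD3, and AT1G12390 had WDR5A-HA folds averaging 1.91 to 2.16 and H3K4me3 folds averaging 9.77 to 10.3. At ASH2R the WDR5A-HA summits lay at 197, 186 and 166 bp from the start and the H3K4me3 summits at 265, 263 and 219 bp.

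The strongest genes with WDR5A-HA alone included the cold regulator CBF1 (AT4G25490), with WDR5A-HA folds of 7.57, 7.01 and 7.42 and no H3K4me3 peak in the gene or its windows in any library. Its WDR5A-HA peak in replicate 1 ran from 13022496 to 13024052 on chromosome 4. The peak touched the gene in all 3 libraries. Its summits lay at 1869, 1840 and 1846 bp from the start of this 1217 bp gene, beyond the 500 bp window past its end. Total and Ser5-phosphorylated Pol II, TBP, H3K4me2 and H2A.Z were all called at CBF1. The adjacent CBF3 (AT4G25480), of the same family, had 5.51, 6.37 and 6.54, likewise without H3K4me3. PLS (AT4G39403), which encodes a small peptide of root growth, had 7.1, 7.16 and 7.98 under a peak from 18324344 to 18330189 on chromosome 4 that is far longer than the gene. AT3G19035, AT1G32910 and UGT85A7 (AT1G22340) had mean folds of 7.29, 7.59 and 7.09, and RALFL21 (AT3G04735) 7.29, but the WDR5A-HA peak touched the gene body of the first 3 in no library and that of RALFL21 in 1. The peaks of these 4 genes reached the window beside the gene with their edge, and at UGT85A7, the 1 oriented gene of the 4, the summits lay at -1331, -1334 and -1308 bp from the start. RALFL21 shared its WDR5A-HA peak with IAA16 (AT3G04730), a gene with both features.

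The strongest genes with H3K4me3 alone were of the same mixed kind. RPT5A (AT3G05530), a proteasome ATPase subunit, had H3K4me3 folds of 9.49, 8.7 and 10.6 inside the gene, with summits at 363, 343 and 307 bp, and Pol II, TBP and all other histone features called, while no WDR5A-HA peak was found in any library. PDCB5 (AT3G58100) had a mean H3K4me3 fold of 9.98 ± 0.263 (SD, n = 3), but a WDR5A-HA peak lay inside its body, beyond the windows, in all 3 libraries. At AT4G38080, AT1G33770, AT1G09510 and MES17 (AT3G10870) the H3K4me3 folds averaged 10.6, 10.2, 10.8 and 9.5, but the peak touched the gene body in none of the libraries. At AT1G33770, AT1G09510 and MES17 the summits lay beyond the 500 bp window past the gene's end, and only the edge of the peak reached it.

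**Figure D5:**
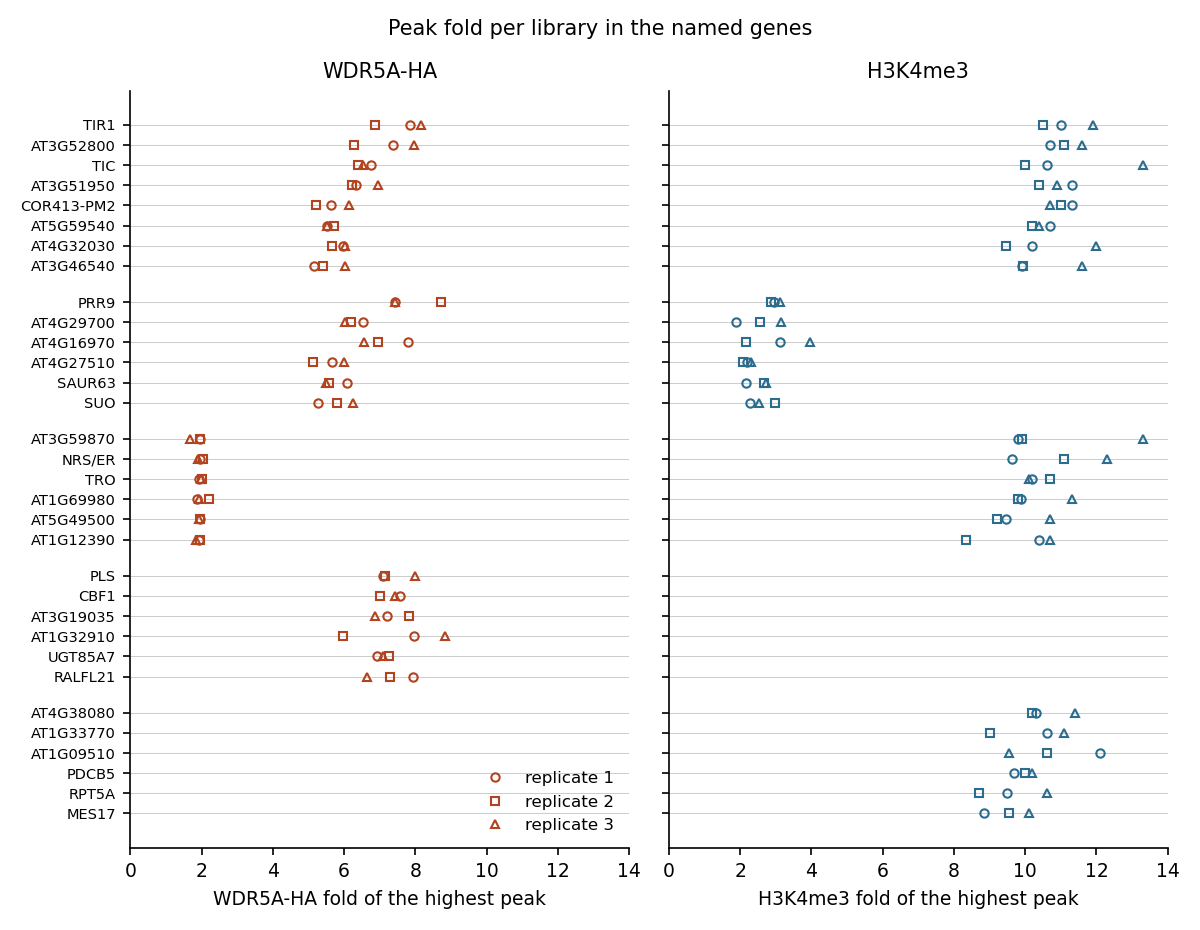
Points give the fold of the highest peak in each library (x axes, WDR5A-HA left, H3K4me3 right) for the genes named by rule (y axis), with 1 symbol per replicate. From top to bottom the blocks are genes high in both, genes with higher WDR5A-HA rank, genes with higher H3K4me3 rank, WDR5A-HA only and H3K4me3 only; an empty row means no peak. TIR1 is high in both panels, PRR9 only in the left one and TRO (ASH2R) only in the right one.

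Pathways differed in which class their genes fell into. Of 30 photosynthesis genes, 28 carried both features, as did 16 of 17 circadian clock genes, 20 of 21 cytosolic ribosomal protein genes and 7 of 8 actin genes, beside 46.0% of all genes. Nearly all of these are genes with Pol II: 30 of the 30 photosynthesis genes, 15 of the clock genes, 20 of the ribosomal genes and 6 of the actin genes had total or Ser5-phosphorylated Pol II, beside 44.8% of all genes. At the genes with both, the median rank percentile of WDR5A-HA fold was 89.4 for photosynthesis, 91.8 for ribosomal proteins, 84.0 for actin and 70.1 for the clock, beside 48.8 over all genes with both. The percentiles of H3K4me3 fold for the same genes were 47.9, 63.4, 53.7 and 47.4, beside 52.5. RBCS1A, the small subunit of Rubisco, had WDR5A-HA folds of 6.56, 6.89 and 7.88 and H3K4me3 folds of 6.6, 9.07 and 9.6, and its rank percentiles were 99.0 to 99.7 for WDR5A-HA and 28.8 to 91.0 for H3K4me3. CCA1, a morning clock transcription factor, stood at 96.4 to 98.0 for WDR5A-HA and 20.3 to 23.2 for H3K4me3. ZTL, a blue-light receptor of the clock, had the reverse order, 67.9 to 73.8 for WDR5A-HA and 96.9 to 99.5 for H3K4me3. Other members varied. PSAF, RPS6A and LUX stood high for WDR5A-HA and from the middle to the top for H3K4me3. PSAF, a photosystem I subunit, had folds of 4.61 ± 0.169 for WDR5A-HA and 9.82 ± 1.76 for H3K4me3, and RPS6A, a protein of the small ribosomal subunit, 4.8 ± 0.337 and 9.88 ± 0.778 (SD, n = 3). LUX, a subunit of the evening complex of the clock, had 4.96 ± 0.056 and 9.16 ± 0.605. The H3K4me3 percentiles over the 3 libraries were 52.8 to 99.2 for PSAF, 83.4 to 97.0 for RPS6A and 63.8 to 95.7 for LUX. The photosynthesis genes LHCB1.1, LHCB1.5 and LHCB2.3 instead stood near the bottom for H3K4me3, at 1.37 to 7.28, 1.75 to 3.73 and 0.234 to 4.27. Their WDR5A-HA percentiles were 83.9 to 94.7, 96.6 to 97.8 and 72.6 to 88.3. The clock gene FKF1 was low for WDR5A-HA, at 18.2 to 38.8, with 15.9 to 45.7 for H3K4me3. The 1 ribosomal gene with H3K4me3 alone was RPL10B, with folds of 8.43, 8.73 and 6.83, while its paralogue RPL10A had 5.0 ± 0.658 for WDR5A-HA and 8.92 ± 0.434 for H3K4me3 (SD, n = 3).

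Genes that respond to light, hormones or stress were split. Of 20 light signalling genes 16 had both and 3 (PIF3, UVR8 and PHOT1) were called for WDR5A-HA alone, but all 3 carried an H3K4me3 peak further inside the gene in every library. The blue-light receptor genes CRY1 and CRY2 had both, with WDR5A-HA folds of 4.64 ± 0.907 and 4.91 ± 0.172 and H3K4me3 folds of 9.74 ± 1.8 and 8.12 ± 0.513 (SD, n = 3). Of 25 Aux/IAA auxin-response genes 15 had both, and IAA16 was the strongest of them in WDR5A-HA, at 7.29 ± 0.648, with 10.1 ± 1.49 for H3K4me3 (SD, n = 3). Its WDR5A-HA peak was the one also counted for RALFL21. IAA5 and IAA20 had WDR5A-HA alone, with folds of 2.55 ± 0.16 and 2.71 ± 0.446 from peaks that did not touch the gene, and IAA17 and IAA28 had H3K4me3 alone, with 4.25 ± 0.46 and 2.68 ± 0.199 (SD, n = 3). Of 21 heat, cold and drought-inducible genes 11 had both, 2 had WDR5A-HA alone (CBF1 and CBF3) and 1, the desiccation gene RD29B, had H3K4me3 alone, at a fold of 3.32 ± 0.324 from a peak outside the gene body. At ZAT10, a stress-induced zinc finger repressor, WDR5A-HA folds were 5.09, 5.3 and 5.38 and H3K4me3 folds 5.18, 4.77 and 5.56, which put it at percentiles of 94.7 to 96.6 for WDR5A-HA and 11.4 to 15.4 for H3K4me3. Among the stress genes with both, the peaks of either feature lay outside the gene body at APX2, and the H3K4me3 peaks at RD20. The median percentiles of the stress genes with both, these included, were 73.0 for WDR5A-HA and 24.2 for H3K4me3. For the light signalling genes they were 75.8 and 53.8, and for the Aux/IAA genes 80.6 and 44.1.

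Of 26 DNA replication genes 13 had both, near the 46.0% of all genes. None had WDR5A-HA alone and 4 had H3K4me3 alone, beside 3.93% and 7.72% of all genes. The 4 were the origin recognition subunit ORC1A, with H3K4me3 folds of 2.86, 2.86 and 2.11, the licensing factor CDT1A (3.22, 2.45 and 2.67), the sliding clamp gene PCNA2 (6.79, 4.48 and 5.85) and the polymerase subunit POLD1 (4.88, 4.56 and 5.43). TSO2, a ribonucleotide reductase subunit, was the strongest of those with both, at 4.77 ± 0.613 for WDR5A-HA and 8.04 ± 0.819 for H3K4me3 (SD, n = 3). Among those with both, the WDR5A-HA peaks of MCM4, PCNA1 and ORC4 lay outside the gene body in all 3 libraries. At ORC5 a WDR5A-HA peak touched the gene body in 1 library, and at ORC4 an H3K4me3 peak did so in 1. Of the 26, 7 had total or Ser5-phosphorylated Pol II, beside 44.8% of all genes. Of 20 genes of mitosis and cytokinesis 2 had both, CDC20.2 and CYCB2;2, and 8 had neither, beside 27.5% of all genes. The WDR5A-HA peaks of CDC20.2 and CYCB2;2 lay outside the gene bodies. CYCB1;4 and KNOLLE, the cytokinesis syntaxin, had WDR5A-HA alone, and CYCB1;2, CYCB2;1 and CDKB2;2 had H3K4me3 alone. Of these, CYCB1;4 and CYCB2;1 had the peak outside the gene body in all 3 libraries. Dividing cells are a part of a whole seedling, and fewer cells with a mark cannot be told apart from less of it per cell.

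Floral and seed genes mostly carried neither. Of 13 floral organ MADS-box genes 7 had neither feature and none had both. AP1, a floral identity gene, had WDR5A-HA alone with folds of 4.41, 4.56 and 4.84 and summits at -19, -103 and -51 bp from its start. SEP3 had 4.63, 4.39 and 5.27 from a peak that did not touch the gene, and AP3 had 2.53, 2.69 and 2.31. CAL had H3K4me3 alone, also outside the gene. TBP was called at AP1, AP3 and SEP3, and H3K4me2 at none of them. Of 13 seed storage and maturation genes 11 had neither feature and 1, OLEO1, had both, with either peak outside the gene. Of 9 meristem regulators 5 had neither, KNAT6 had both and KNAT2 had H3K4me3 alone, outside its body. Of 17 flowering-time genes 9 had both, among them the floral repressor SVP at 3.96 ± 0.297 for WDR5A-HA and 9.21 ± 0.301 for H3K4me3 (SD, n = 3). The floral repressor FLC had H3K4me3 alone with folds of 4.08, 3.17 and 3.21 and summits at 226, 266 and 265 bp, and LFY had H3K4me3 alone at 4.41 ± 0.294 (SD, n = 3) from a peak outside its body, with WDR5A-HA inside the body in 2 libraries. MAF4, a relative of FLC, was called for WDR5A-HA alone through the peak of its neighbour MAF3, at 3.48 ± 0.267 (SD, n = 3).

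The genes that add or remove H3K4 methylation were examined last. Of 18 such genes, 7 of them for demethylases, 12 had both features, none had WDR5A-HA alone, 1 had H3K4me3 alone, 1 had neither and 4 were called in some libraries. The median percentiles of those with both were 23.1 for WDR5A-HA and 53.1 for H3K4me3, beside 48.8 and 52.5 over all genes with both. The members differed in WDR5A-HA percentile, with ATX5 at 2.6 to 8.52 and RBL at 49.1 to 74.6 over the 3 libraries. WDR5A itself had WDR5A-HA folds of 2.22, 2.06 and 1.99. Their summits lay at 2220, 2220 and 2252 bp from the start, past the end of this 2150 bp gene. Its H3K4me3 folds were 8.28, 9.59 and 7.47 with summits at 305, 260 and 299 bp. RBL, the retinoblastoma-binding-protein-like subunit, had 2.97 ± 0.36 and 7.86 ± 0.977, and the methyltransferase genes ATX2, ATX3 and ATX4 had WDR5A-HA folds of 2.58 ± 0.179, 2.6 ± 0.223 and 2.61 ± 0.236 (SD, n = 3). The WDR5A-HA summits of ATX2 lay past the end of this 7780 bp gene, at 7964, 7928 and 7989 bp. Those of ATX3 lay upstream, at -167, -99 and -199 bp, and those of ATX4 inside, at 304, 318 and 299 bp. ATXR3, the main enzyme that trimethylates H3K4, had H3K4me3 folds of 9.02, 8.34 and 5.75 and no WDR5A-HA peak in any library. ATX1 had WDR5A-HA in replicates 1 and 3 only, at 2.02 and 1.86.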

How the data were processed

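Peak lists of chromatin immunoprecipitation sequencing were used for 3 libraries each of WDR5A-HA and H3K4me3, and for 3 each of 8 other wild-type features, with 1 list of TBP regions. Per the submitters' processing notes, fastp, Bowtie2 2.3.3, MACS2 2.2.5 and deepTools were used with build TAIR10. Which control the caller used is not stated in the labels. The deposited lists hold, per peak, start, end and summit positions, a fold enrichment (a ratio to local background), 2 significance columns on the −log10 scale (p-value and q-value) and a score that is 10 times the −log10 q-value, within 1. The lists deposited for the whole series hold positions only. Fold was ranked within a library only, since its background may differ between features.

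Gene bounds came from the RefSeq table of TAIR10.1, whose positions were checked against the H3K4me3 summits. The table gives no strand. A gene was oriented when the highest H2A.Z summit in its body lay nearer the same end in all 3 H2A.Z libraries, which oriented 18184 genes. H3K4me3 gave the same direction for 98.5% of the 12866 genes oriented by both. Pol II forms and H3K4me1 were called over the gene body, other features in windows of 500 bp around both gene ends. For the zones along genes, Pol II peaks were taken from the gene and 500 bp to either side. Differences between the libraries were tested by exact two-sided permutation, adjusted by Benjamini-Hochberg over 5 tests. No pairing of libraries by replicate number was seen: deviations of same-numbered libraries correlated at 0.003, 0.01 and 0.016. Those of other pairs correlated at -0.014 to 0.004. These values cannot show whether same-numbered libraries shared plants or a batch.

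Named genes were the 8 highest in both features, the 6 with the largest rank difference in each direction, the 6 strongest with each feature alone, list members with 1 feature alone and the up to 4 highest of each list; others named are list members shown as examples and chosen after their values were seen. The comparison, the rule and the 14 lists of 258 genes were chosen with earlier results of these data known. Promoter motifs were not searched, since no sequence was used here. Calls, classes, orientation, ranks, overlaps and tests were tested on simulated data. Tables and tests used pandas 2.3.3, numpy 2.4.6, statsmodels 0.14.6 and scipy 1.17.1 under Python 3.11.15, and matplotlib 3.10.9 drew the plots.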

Additional observations from a re-analysis of the deposited data

How the results depend on the processing

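The summit offset, the width difference and the sign of the rank relation kept their direction under every alternative run for them. The planned offset was -104.7 bp. It ranged from -222 bp with start-window peaks, added after seeing the data, to -60.3 bp in genes with no neighbour within 500 bp. The width difference ranged from -237.3 to -182.3 bp. Treating same-numbered libraries as pairs (replicate block) left -104.7 and -209.7 bp with an exact sign-flip p of 0.25, the smallest 3 pairs allow, and gave class counts of 1079, 2118 and 12627 by construction, a distance of 458 bp, a rank correlation of 0.102 and a peak overlap of 61.0%. The counts of genes moved more. WDR5A-HA only came to 651 genes with the gene body as window, 504 at the gene start alone (oriented genes only), 1839 with the summit in the window, 2251 when only peaks scoring above the library median counted, and 1641 with the lists for the whole series. H3K4me3 only came to 3487 with at least 2 of 3 libraries and 3428 with the lists for the whole series. Genes with both came to 8277 at the gene start alone and 4321 under that score limit. The distance was 281 bp with 1 peak of each feature, 551 bp without neighbours and 241 bp for the nearest summits. The rank correlation was 0.194 for summed fold and, added after seeing the data, 0.0703 for start-window peaks, 0.177 for summits within 200 bp, 0.0798 with and 0.0452 without Pol II. With WDR5A-HA in at least 2 of 3 libraries the lowest and highest H3K4me3 quartile groups held 66.4% and 93.4%. Peak overlap came to 47.0% with at least 50% of the WDR5A-HA peak covered and 40.6% under the score limit. Leaving out 1 library in turn gave 1115 to 1245 genes with WDR5A-HA only, 2149 to 2689 with H3K4me3 only and 12655 to 13401 with both, offsets of -106.2 to -102.7 bp, distances of 456 to 462 bp, a rank correlation of 0.0898 to 0.11, quartile group shares of 55.7% to 61.8% and 86.9% to 91.1%, and overlap of 60.5% to 61.2%. The cause of these moves was not tested. Depth per library is unknown, and WDR5A-HA folds were low, so counts with 1 feature alone rest on what the lists could call.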
